A study of Mus musculus with 4 samples.

Results

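The cytosolic ribosomal protein genes were described in RNA-seq libraries of mouse embryonic stem cells (mESCs) labelled WT or KO for Spen, an RNA-binding repressor that Xist needs to silence the X chromosome. The comparison asks how their RNA levels differ between these lines. Members were the protein-coding genes of the count table whose GENCODE vM1 symbol is Rpsa, Rplp0 to Rplp2, or Rpl or Rps followed by a number, with or without a closing a, x, y or l. The rule takes no measured value and gave 80 of the 37310 genes in the table, 48 named for the large subunit and 32 for the small one. Rps6 kinases, ribosomal proteins with other names and copies with Gm names lie outside it.

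The cells were of the HATX line, a gift line of mixed genomic background that the study describes as haploid and that carries an Xist transgene switched on by doxycycline. They grew in serum and LIF on gelatin, and the labels list no treatment. WT libraries (n = 2) came from the parental HATX line and KO-labelled libraries (n = 2) from 1 clone, clone 2, in which the study describes a deletion of Spen. Each group is thus 1 cell line, and what else differs between the clone and its parent cannot be told apart from the deletion. Nothing states whether the 2 libraries of a group came from separate cultures, so p-values measure only the spread between these libraries. Spen itself gave normalized counts of 3716 and 3047 in WT and 7797 and 6242 in KO-labelled cells, so its gene-level count was higher under the KO label and does not check that label. The second group is therefore called KO-labelled.

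Total counts ran from 36667685 to 61908422 per library, and the WT libraries were the shallower pair. All 10 mESC markers examined were expressed, among them Pou5f1, with 40981 and 35210 in WT against 36777 and 39707 in the KO-labelled pair, and 2 were higher (Dppa5a and Zfp42) and 1 lower (Fgf4), against 16.4% and 15.8% of all genes. Without WT replicate 1, WT replicate 2, KO-labelled replicate 1 and KO-labelled replicate 2 in turn, 1, 3, 1 and 1 were higher and 0, 0, 0 and 1 lower, Zfp42 being lost each time. Of 8 fibroblast feeder markers, 1 had a mean normalized count of at least 50, which was Thy1 with 118 and 137 in WT and 356 and 414 in KO-labelled cells, and of 5 tested, Thy1 was higher and the smooth muscle actin gene Acta2 lower, with 34.5 and 43.6 in WT against 6.97 and 9.39 in the KO-labelled pair. The collagen gene Col1a2 stayed between 5.22 and 13.3. Of 9 markers of differentiated lineages found in the annotation, 7 were tested and 5 were lower in the KO-labelled libraries, against 15.8% of all genes, T with 378 and 425 in WT and 27.9 and 32.1 in KO-labelled cells. With the libraries left out in that order, 4, 3, 4 and 3 were lower, and Acta2 had no adjusted p in any of these fits. Summed over the list, feeder markers came to 207 and 235 in WT and 428 and 495 under the KO label, and without Thy1 to 88.8 and 98 against 72.3 and 80.6, with Postn and Lum each at 0 in 3 of the 4 libraries, and lineage markers came to 1724 and 1839 against 583 and 574. Their part in the results on ribosomal protein genes was not tested.

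A cytosolic ribosome pairs a small subunit, which reads the mRNA, with a large subunit, which joins amino acids, and each protein of either subunit is usually made from 1 widely expressed gene. The mRNAs of these genes begin with a run of pyrimidines, the 5' TOP motif, through which mTOR and the protein LARP1 set their translation. Their short, abundant mRNAs have been copied back into the genome many times, so processed copies of ribosomal protein genes are common in mammals, and several of the parent genes carry small nucleolar RNAs in their introns.

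The similarity of members to their copies bears on the counts below, so the clearest case is shown first. Rps3a, a small subunit protein gene on chromosome 3, and Gm9000, an intronless gene on chromosome 13, both have a coding sequence of 792 bases and differ at 9 of them (98.9% identity). Gm10119, on chromosome 14, differs from Rps3a at 4 (99.5%). Of the 718 stretches of 75 bases in this coding sequence, 75 being the length of 1 read, 231 are the same in Rps3a and Gm9000 and 470 in Rps3a and Gm10119. The window of 150 bases inside 1 Rps3a exon with the most differences from Gm9000, coding positions 167 to 316, is printed for the 3 genes in mm9, 5' to 3'. Capitals mark bases at which a copy differs from Rps3a. The Rps3a window is at chr3:85945199-85945348, minus strand, that of Gm9000 at chr13:109460963-109461112, plus strand, and that of Gm10119 at chr14:88523300-88523449, minus strand.
Rps3a: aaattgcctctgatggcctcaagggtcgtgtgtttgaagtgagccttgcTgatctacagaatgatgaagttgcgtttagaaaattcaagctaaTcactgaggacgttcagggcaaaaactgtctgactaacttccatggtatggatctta
Gm9000: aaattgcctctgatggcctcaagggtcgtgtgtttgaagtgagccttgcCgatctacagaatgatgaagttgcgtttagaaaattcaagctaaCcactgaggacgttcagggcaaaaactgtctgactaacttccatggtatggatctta
Gm10119: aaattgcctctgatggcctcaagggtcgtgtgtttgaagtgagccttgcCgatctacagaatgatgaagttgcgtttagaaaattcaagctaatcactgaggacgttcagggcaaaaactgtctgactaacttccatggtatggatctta

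Rpl4, the member with the highest fold change, has an intronless copy on chromosome 1 (144989848 to 144991226, mm9, minus strand) that aligned over 1382 bases at 96.8% identity and on which no exon is annotated, so the copy has no count of its own. A window of 120 bases in 1 Rpl4 exon (chr9:64024758-64024877, plus strand) is set beside the copy (chr1:144990508-144990627, minus strand), with capitals where they differ.
Rpl4: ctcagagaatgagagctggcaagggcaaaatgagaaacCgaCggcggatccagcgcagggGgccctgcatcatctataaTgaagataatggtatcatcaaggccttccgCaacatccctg
copy of Rpl4: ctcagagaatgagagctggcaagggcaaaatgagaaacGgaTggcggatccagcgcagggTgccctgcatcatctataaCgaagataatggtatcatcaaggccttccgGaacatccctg

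Rpl39l, the member with the lowest fold change, is the paralog of the X-linked gene Rpl39 and is known for expression in testis. Its coding sequence lies in 1 exon (chr16:10174403-10174555, plus strand), while that of Rpl39 is spliced from 3 exons (within chrX:34622699-34625122, minus strand). They differ at 23 of 153 bases (85% identity) and share 0 of 79 stretches of 75 bases. Capitals mark the differing bases.
Rpl39: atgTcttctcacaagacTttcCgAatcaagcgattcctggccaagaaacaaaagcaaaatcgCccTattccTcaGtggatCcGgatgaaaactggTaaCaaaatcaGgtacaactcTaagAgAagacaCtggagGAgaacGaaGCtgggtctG
Rpl39l: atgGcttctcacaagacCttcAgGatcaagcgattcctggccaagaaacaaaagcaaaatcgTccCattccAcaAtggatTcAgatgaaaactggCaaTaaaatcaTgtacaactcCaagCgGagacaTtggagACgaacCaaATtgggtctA

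Ribosomal protein genes were among the most abundant RNAs of these cells. By mean normalized count per kb of annotated exon, 76 of the 80 stood in the top 5% of the 17710 genes with an adjusted p. The median member had 22689 counts per kb, against 154 for all genes tested. On this scale the 5 highest were Rplp1 with 143336, Rpl4 with 112218, Rps12 with 101327, Rpl8 with 99341 and Rplp0 with 85927. The 5 lowest were Rpl3l, a paralog known from heart and skeletal muscle, with 23, Rpl39l with 288, Rpl10l, a retrogene used in male meiosis, with 709.7, Rpl30 with 3505 and Rpl24 with 3905. Exonic length sums all annotated transcripts, so a gene with long minor transcripts is set low on this scale. The other 77 members, without these 3 paralogs, spanned 40.9-fold per kb.

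Members took 6.97% and 6.8% of all WT counts and 6.59% and 6.69% of the KO-labelled counts. The group means were 6.89% ± 0.124 and 6.64% ± 0.0683 (SD, n = 2), and the groups did not overlap. Wilson 95% intervals, which cover counting error only, ran from 6.967 to 6.983% in WT replicate 1, the shallowest library, and were narrower in the rest. The smallest two-sided p that an exact permutation test on 2 against 2 libraries allows is 0.333, so the shares were not tested. Small subunit genes held 2.96% ± 0.0562 in WT and 2.65% ± 0.0398 in the KO-labelled libraries, while large subunit genes stood at 3.93% ± 0.0678 and 3.99% ± 0.0285. Without Rpl4 the share of all members was 6.68% in WT and 6.18% in the KO-labelled libraries, and that of large subunit genes was 3.73% ± 0.0795 and 3.53% ± 0.0426, so its direction turned with that 1 gene. In bulk RNA, fewer cells of a type and less RNA per cell cannot be told apart.

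Gene by gene, more members were lower than higher in the KO-labelled libraries. At a DESeq2 adjusted p under 0.05, adjusted over all 17710 genes tested, 32 members were lower, against 15.8% of all genes, and 4 were higher, against 16.4%. The other 44 did not pass. The changes were mostly small. The median log2 fold change of the 80 members was -0.072, while that of all genes tested was 0.00489. At the study's thresholds of 2-fold and an adjusted p under 0.001, 2 members were lower (Rpl39l and Rps3a), with 3.15% of all genes, and 1 was higher (Rpl4), with 1.36%. Both KO-labelled libraries lay below both WT libraries in 38 members and above them in 11, and the shares over all genes tested were 34.8% and 35.4%. Of the 48 large subunit genes 16 were lower and 3 higher, with a median of -0.018, and of the 32 small subunit genes 16 were lower and 1 higher, with a median of -0.14. The difference between the subunits was not tested. With 1 library left out, here and in the counts elsewhere, smaller shares of all genes also passed in either direction. Without WT replicate 1, 20 members were lower, and without KO-labelled replicate 1, 19 were. Lower large subunit genes numbered 10, 16, 10 and 14 and lower small subunit genes 10, 10, 9 and 11 without WT replicate 1, WT replicate 2, KO-labelled replicate 1 and KO-labelled replicate 2 in turn.

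**Figure D1:**
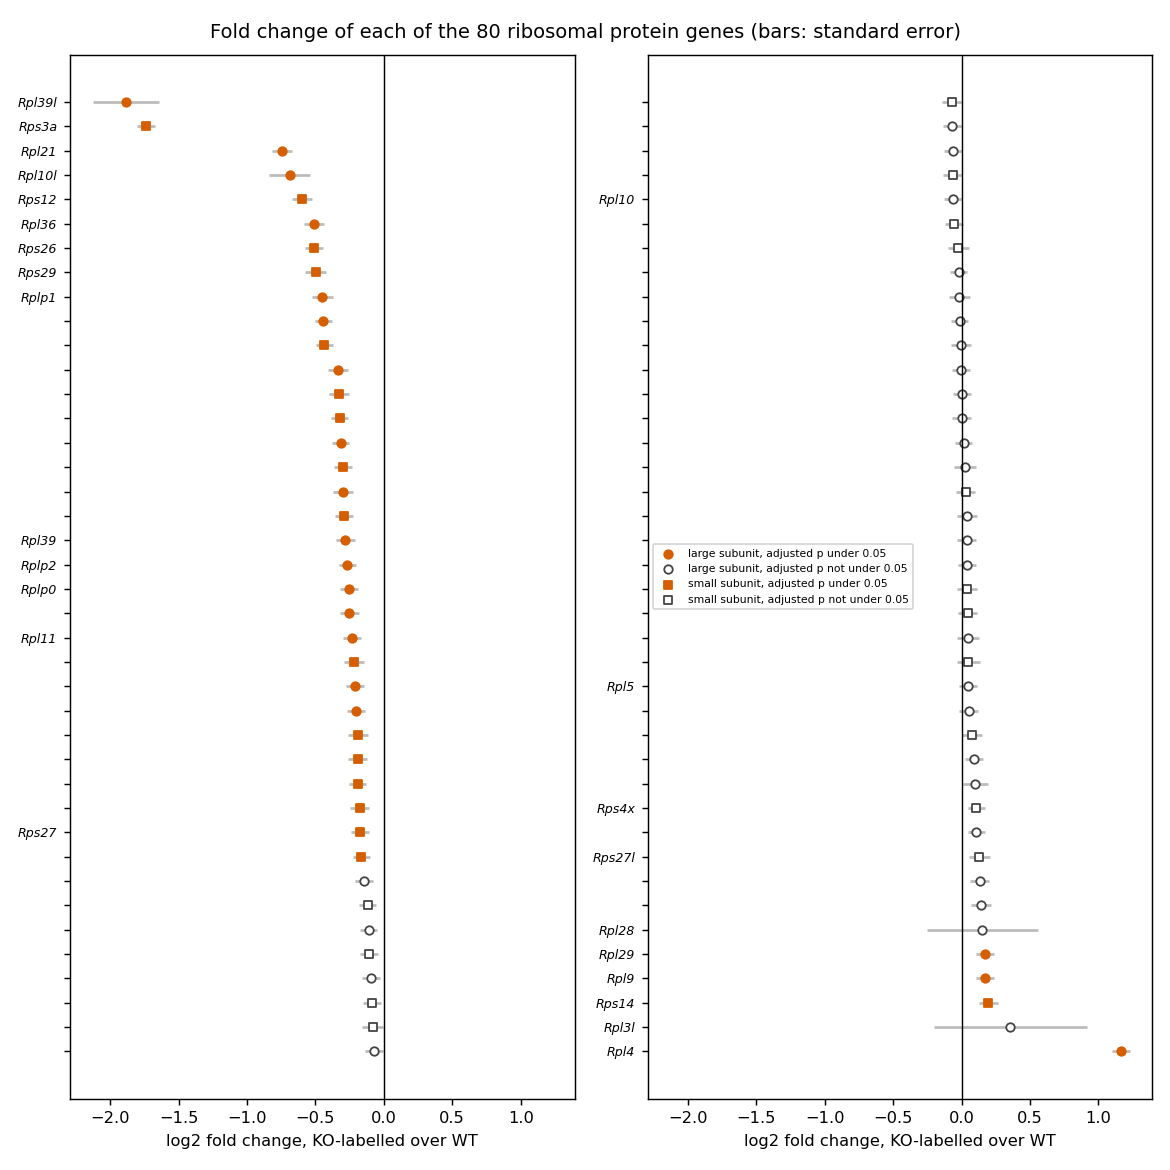
Log2 fold change of each of the 80 members (x axis, KO-labelled over WT), ordered from the lowest to the highest, with the standard error as a bar. Names are given for the lowest 9 members and for some others that the text describes. Circles are large and squares small subunit genes, and filled symbols have an adjusted p under 0.05. Rpl39l and Rps3a stand apart on the low side at -1.88 and -1.74, Rpl4 stands apart on the high side at 1.16, and Rpl28 and Rpl3l have the widest errors.

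Rpl4, a protein of the large subunit whose gene hosts small nucleolar RNAs in its introns, was the member that rose past 2-fold. It had normalized counts of 95423 and 101600 in WT against 223589 and 217681 in the KO-labelled pair. Both KO-labelled values were over 2-fold above both WT values. The log2 fold change was 1.16 ± 0.064 (SE; DESeq2 adjusted p = 4.08e-72). Reads that its unannotated copy could give or take were not counted separately.

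Rps3a fell most steeply among the abundant members. Its counts were 51465 and 48290 in WT and 15140 and 14814 in KO-labelled cells, a log2 fold change of -1.74 ± 0.066 (SE; DESeq2 adjusted p = 9.34e-151). Both Gm9000 and Gm10119, copies named after their values were seen, moved the opposite way. Gm9000 had 492 and 464 in WT against 19363 and 17849 in the KO-labelled pair, a log2 fold change of 5.28 ± 0.09 (SE), for which DESeq2 returned an adjusted p of 0. Gm10119 had 350.0 and 285 in WT and 2052 and 1463 in KO-labelled cells, a log2 fold change of 2.47 ± 0.17 (SE; DESeq2 adjusted p = 3.29e-46). Rps3a stood far above both copies in WT, whereas Gm9000 stood above Rps3a in the KO-labelled cells. With the counts of Rps3a and its 3 annotated copies added, an alternative chosen after the data were seen, the sum was 52365 and 49053 in WT and 36566 and 34147 under the KO label. The sum remained lower, at -0.52 ± 0.068 (SE; DESeq2 adjusted p = 7.06e-13), but no longer by 2-fold. In that setting 1 member, Rpl39l, was lower at the study's thresholds, with 3.21% of all units tested. How the counting treated reads with several matches is not stated, so counts of Rps3a and its copies are uncertain as single genes. Whether reads moved between these loci was not tested.

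Rpl39l was low in WT and lower in the KO-labelled libraries, with 339 and 414 in WT against 112 and 92.3 in the KO-labelled pair. The groups were well apart, and the log2 fold change was -1.88 ± 0.24 (SE; DESeq2 adjusted p = 2.16e-13). Its parent Rpl39 had 22281 and 20674 in WT and 18125 and 17236 in KO-labelled cells, a log2 fold change of -0.28 ± 0.07 (SE; DESeq2 adjusted p = 0.00039), so both were lower. Rpl10l, the other low paralog past the test, had 957 and 831 in WT against 594 and 516 in the KO-labelled pair (log2 fold change -0.69 ± 0.15 SE, DESeq2 adjusted p = 3.18e-05), whereas its X-linked parent Rpl10 had 55969 and 53930 in WT and 54244 and 51017 in KO-labelled cells and did not pass (log2 fold change -0.062 ± 0.065 SE, DESeq2 adjusted p = 0.529). The libraries of Rpl10 overlapped between groups. The difference between a paralog and its parent was not tested.

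**Figure D2:**
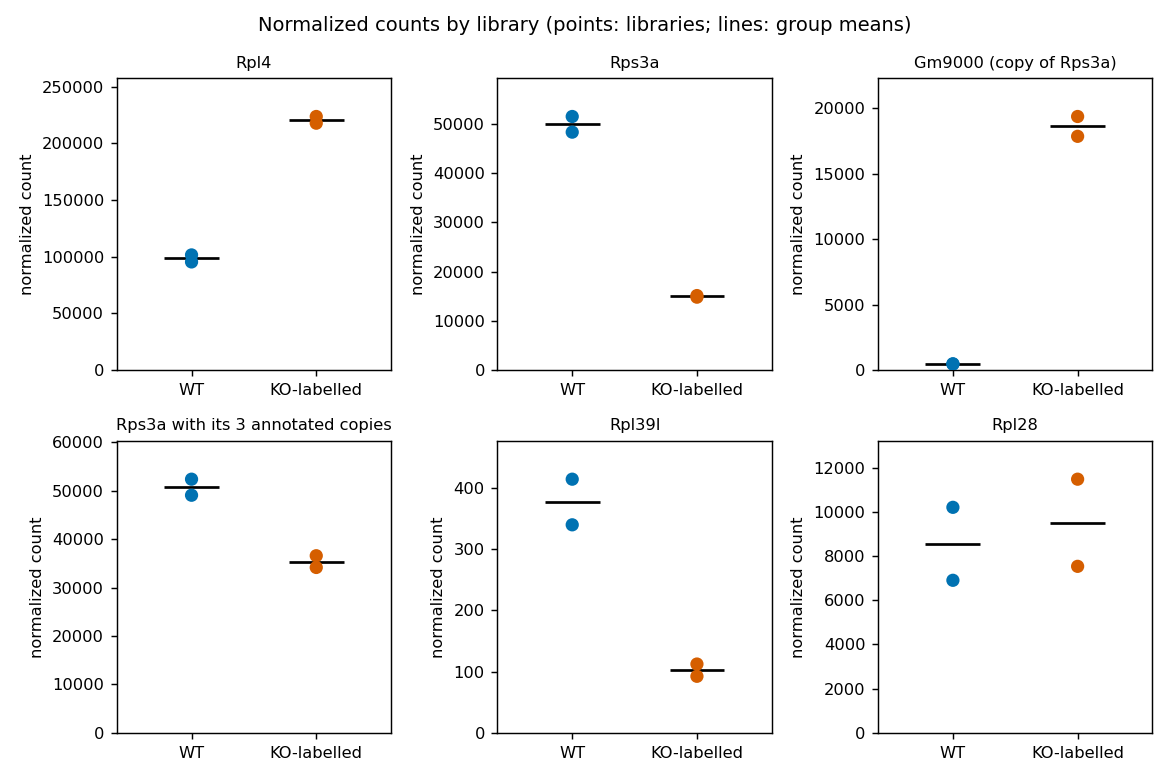
Normalized counts (y axis, from 0) in each library for Rpl4, Rps3a, its copy Gm9000, the sum of Rps3a with its 3 annotated copies, Rpl39l and Rpl28. Points are libraries (2 WT, 2 KO-labelled) and lines are group means. The groups are apart in every panel but that of Rpl28, where the libraries of each group spread across the other group.

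Rpl21 had 29292 and 28428 in WT against 18189 and 16211 in the KO-labelled pair, and at -0.75 ± 0.073 (SE; DESeq2 adjusted p = 1.98e-22) it was the next lowest member. It has 42 annotated copies, the most of any member, and with them added its log2 fold change was -0.74. Rps12, a small subunit protein of the head domain, had 66061 and 60104 in WT and 39547 and 43831 in KO-labelled cells (log2 fold change -0.60 ± 0.075 SE, DESeq2 adjusted p = 5.96e-14). Both genes were lower in both KO-labelled libraries than in either WT library. On the log2 scale Rpl36 stood at -0.51 (adjusted p = 1.7e-11), Rps26, which lies at the mRNA exit of the small subunit, at -0.51 (adjusted p = 7.93e-13), and Rps29, a zinc-binding small subunit protein, at -0.50 (adjusted p = 1.23e-09), all by DESeq2, and their groups did not overlap either. With Rpl39l, Rps3a and Rpl10l these were the 8 lowest, and the other 24 of the 32 lower members stood at -0.45 (Rplp1) or nearer to 0.

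The P stalk is the flexible arm of the large subunit that recruits translation factors, and the RNAs of its 3 proteins were all lower, against 15.8% of all genes. Rplp1 had 85065 and 78793 in WT against 56242 and 63705 in the KO-labelled pair (log2 fold change -0.45 ± 0.076 SE, DESeq2 adjusted p = 4.52e-08). Rplp0, the base of the stalk, had 159226 and 151006 in WT and 124938 and 135044 in KO-labelled cells (log2 fold change -0.25 ± 0.067 SE, DESeq2 adjusted p = 0.000853), and Rplp2 had 25898 and 25161 in WT against 21348 and 21072 in the KO-labelled pair (log2 fold change -0.27 ± 0.063 SE, DESeq2 adjusted p = 0.000173). In none of the 3 did the groups overlap. Rplp1 and Rplp2 bind Rplp0 as dimers. Rpl5 and Rpl11 join the 5S rRNA in a particle that also binds Mdm2. Rpl11 had 43893 and 41504 in WT and 35238 and 37387 in KO-labelled cells and was lower (log2 fold change -0.23 ± 0.067 SE, DESeq2 adjusted p = 0.00242), while Rpl5, with 47863 and 45388 in WT against 47656 and 48760 in the KO-labelled pair, did not pass (log2 fold change 0.048 ± 0.064 SE, DESeq2 adjusted p = 0.633). Rplp0 had a DESeq2 adjusted p of 0.0727 without WT replicate 1 and 0.102 without KO-labelled replicate 1. Rpl11 had a DESeq2 adjusted p of 0.121 without WT replicate 1 and 0.136 without KO-labelled replicate 1.

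Of the 4 X-linked members, only Rpl39 passed the test, on the low side. Of the other genes on this chromosome, 22.8% were lower and 13.9% higher. Rps4x had 92152 and 89172 in WT and 97175 and 98140 in KO-labelled cells (log2 fold change 0.11 ± 0.061 SE, DESeq2 adjusted p = 0.178), and its groups did not overlap. Rpl36a stood at a log2 fold change of -0.11 (adjusted p = 0.184) by DESeq2. Among the other parent and paralog pairs, Rpl3 stood at a log2 fold change of -0.073 (adjusted p = 0.474) with overlapping groups. Rpl3l had 31.8 and 32.7 in WT against 34 and 48.5 in the KO-labelled pair, a log2 fold change of 0.36 ± 0.56 (SE; DESeq2 adjusted p = 0.698). Rps27, with 29172 and 28977 in WT and 24945 and 26544 in KO-labelled cells, was lower (log2 fold change -0.18 ± 0.065 SE, DESeq2 adjusted p = 0.0258), and Rps27l, a p53-responsive paralog, had 10657 and 10903 in WT against 12402 and 11195 in the KO-labelled pair and did not pass (log2 fold change 0.13 ± 0.075 SE, DESeq2 adjusted p = 0.187). Rpl39 had a DESeq2 adjusted p of 0.0678 without WT replicate 1 and 0.0654 without KO-labelled replicate 2. Rps27 had a DESeq2 adjusted p of 0.196 without WT replicate 1, 0.163 without WT replicate 2, 0.35 without KO-labelled replicate 1 and 0.0758 without KO-labelled replicate 2.

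Apart from Rpl4, the members that passed on the high side moved little. Rps14, a small subunit protein of the platform, had 51999 and 49918 in WT and 55960 and 60821 in KO-labelled cells (log2 fold change 0.20 ± 0.068 SE, DESeq2 adjusted p = 0.0146). Log2 fold changes by DESeq2 were 0.17 (adjusted p = 0.0346) for Rpl9 and 0.17 (adjusted p = 0.0338) for Rpl29, a large subunit protein that mice can live without. The groups did not overlap in any of the 3. Rpl8, among the most abundant members per kb, had 82589 and 82221 in WT against 88018 and 89699 in the KO-labelled pair, a log2 difference of 0.11 ± 0.06 (SE; DESeq2 adjusted p = 0.164) that did not pass, and Rpl30 and Rpl24, low per kb, stood at log2 fold changes of 0.099 (adjusted p = 0.457) and -0.32 (adjusted p = 5.73e-06). With 1 library left out these calls were lost in part. Rps14 had a DESeq2 adjusted p of 0.0542 without WT replicate 1, 0.179 without WT replicate 2 and 0.311 without KO-labelled replicate 2. Rpl9 had a DESeq2 adjusted p of 0.361 without WT replicate 2, 0.109 without KO-labelled replicate 1 and 0.285 without KO-labelled replicate 2. Rpl29 had a DESeq2 adjusted p of 0.141 without WT replicate 1, 0.222 without WT replicate 2, 0.313 without KO-labelled replicate 1 and 0.091 without KO-labelled replicate 2.

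Of the 32 lower members, 18 lay on chromosomes whose other genes were also low. Over genes that are not members, a mean count of at least 50 being required, the median fold change on the log2 scale was under -0.1 on 5 of the chromosomes with members, 4, 10, 12, 16 and 17, which hold 21 of them. Of these 18 were lower and 0 higher, with a median of -0.32. Of the other genes tested on these and on chromosome M, which holds no member and was under -0.1 too, 29.9% were lower and 4.74% higher, with a median of -0.25. Of the 59 members elsewhere, 14 were lower and 4 higher, with a median of -0.016, and of the other genes there 11.5% were lower and 20% higher, with a median of 0.0853. With 1 library left out, the lower members elsewhere numbered 6 without WT replicate 1, 10 without WT replicate 2, 6 without KO-labelled replicate 1 and 9 without KO-labelled replicate 2, and those on the 5 chromosomes 14, 16, 13 and 16 in the same order. The higher members elsewhere then numbered 1 or 2. The grouping was made after the chromosome values were seen and is given without a test.

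On chromosome 10, where other genes had a median of -0.35 and 40.9% of them were lower, all 3 members were lower (Rps12, Rps15 and Rps26, from -0.60 to -0.33). On chromosome 12, with -0.32 for other genes and 37% of them lower, so were all 3 (Rpl10l, Rps29 and Rps7, from -0.69 to -0.32). Chromosomes 16 and 4, with -0.23 and -0.20, had all 3 and all 5 of their members lower, beside 31.9% and 26.2% of other genes. Chromosome 17, with -0.13, had 4 of 7 lower, beside 18.4% of other genes, and its members ran from -0.51 to 0.36. The lower members of chromosome 4 numbered 3, 4, 3 and 4 without WT replicate 1, WT replicate 2, KO-labelled replicate 1 and KO-labelled replicate 2 in turn. On chromosome 7, which has 14 members and a median of 0.1 for other genes, 5 were lower and 0 higher, with a median of -0.072, and 9.51% of other genes were lower and 19.1% higher. These 5 became 2, 3, 1 and 4 with the libraries left out in the same order. On chromosome 11, at 0.17 for other genes, 1 of 7 was lower, beside 6.02% of other genes. Over the 80 members, the log2 fold change had a Pearson r of 0.42 and a Spearman rho of 0.47 with the median of other genes on the chromosome, given as a description since members of a chromosome share that median. The copy numbers of the chromosomes in the 2 lines were not measured here.

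**Figure D3:**
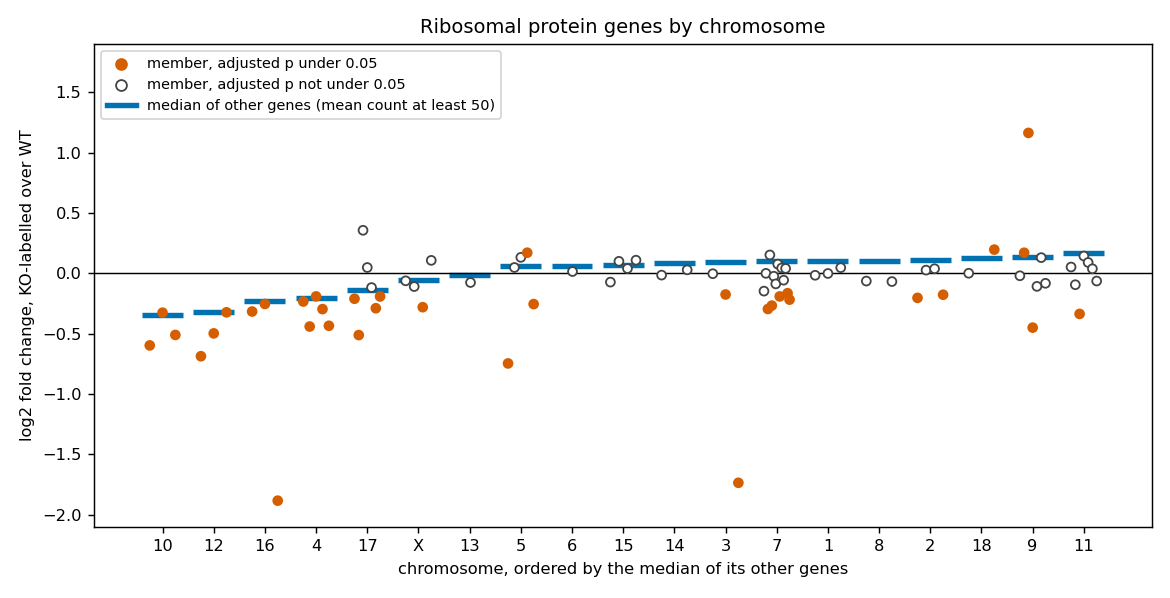
Log2 fold change (y axis, KO-labelled over WT) of each member, by chromosome (x axis), with chromosomes ordered by the median of their other genes, drawn as a bar. Filled points have an adjusted p under 0.05. On the leftmost 4 chromosomes every member is filled and below 0, and to the right most members are open and near 0.

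With each chromosome's median taken off, 28 members were lower at an adjusted p under 0.05, against 14.9% of all genes in that fit, and 19 of them were among the 32 of the test above. The 13 that were lost were Rpl10a, Rpl10l, Rpl11, Rpl24, Rpl35a, Rps2, Rps6, Rps7, Rps15, Rps20, Rps26, Rps28 and Rps29, every one on chromosome 4, 10, 12, 16 or 17. In Rps15 and Rps20 the sign turned as well, to 0.0189 and 0.0136. The 9 that were gained were on chromosomes 7, 8, 9 and 11, Rpl13a and Rpsa among them. The higher members became Rpl4 and Rps4x, against 12.3% of all genes. Members lower in all 14 fits of single-gene counts included Rplp1, Rplp2, Rps3a, Rpl22, Rpl39l, Rpl21, Rpl23a and Rps12, and Rpl4 alone was higher in all of them. For Rpl23a, 59.7% of the exonic bases overlap Tlcd1 on the other strand, and the strand setting of the counting is not stated.

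Copies were common, and few carried many counts. For 58 of the 80 members at least 50% of the transcript had a copy elsewhere in mm9 (75 bases or more at 95% identity or more), and 6 had none. The table held 396 annotated copies of 68 members, 47 of them without a count in any library. Of the 170 copies tested, 3 were higher and 4 lower at the same threshold. Apart from those of Rps3a, the summed copies of a member came to a median of 0.495% of its counts and to at most 6.41% (Rpl37). Adding them moved no other member's log2 fold change by more than 0.0154. Copies without annotation, such as that of Rpl4, were not in these sums. How reads with several matches were counted is not stated, so the sums cannot tell how many reads the copies gave. Members with copies over at least 50% of the transcript had a median log2 fold change of -0.085 (24 of 58 lower), and the other 22 one of -0.037 (8 of 22 lower). Higher were 4 of the first set and 0 of the second, and over all genes 15.8% were lower and 16.4% higher. The lower ones of the first set numbered 14, 20, 14 and 19 and those of the second 6, 6, 5 and 6 without WT replicate 1, WT replicate 2, KO-labelled replicate 1 and KO-labelled replicate 2 in turn. Across the 80 members the fold change had a Spearman rho of -0.12 with the copied share, 0.0978 with exonic length and 0.0681 with the level per kb, as descriptions.

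Promoters were looked at because the TOP mRNAs of these genes start within a pyrimidine tract. RefSeq promoter sequences (GRCm38.p6) were matched for 59 of the 80 members. The letters CTTTCC, a pyrimidine run with no wider definition here, stood on the sense strand within 50 bases of the start in 17 of them (28.8%), against 4.67% of all 27025 promoters. Counting both strands gave 30.5% and 8.74%. Both Rpl4 and Rpl39l, which stand at opposite ends of the fold changes, carry it. By this annotation both matches lie before the start, outside the mRNA, so neither is shown to be a TOP motif. Their bases from 50 before to 20 after the start are given, with the motif in capitals (chr9:64173337-64173406 and chr16:10170178-10170247, both plus strand).
Rpl4: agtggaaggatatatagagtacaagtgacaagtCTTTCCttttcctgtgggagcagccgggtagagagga
Rpl39l: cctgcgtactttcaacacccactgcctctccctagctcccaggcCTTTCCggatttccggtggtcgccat
The 17 members with the motif had a median log2 fold change of -0.0148 and 4 were lower, and the 42 without it had one of -0.101 and 19 were lower. In each set 1 member was higher. The shares over all genes tested were 15.8% lower and 16.4% higher, and the difference between the sets was not tested. Lower members with the motif numbered 2, 3, 2 and 3 and those without it 11, 16, 10 and 15 without WT replicate 1, WT replicate 2, KO-labelled replicate 1 and KO-labelled replicate 2 in turn.

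Libraries of 1 group also differed in the members. Rpl28, a large subunit protein gene on chromosome 7, had 6901 and 10201 in WT and 11473 and 7532 in KO-labelled cells, so that 1 library of each group was high and 1 low, and its log2 fold change was 0.15 ± 0.41 (SE; DESeq2 adjusted p = 0.833). It is named for this spread, after its values were seen. WT replicate 2 and KO-labelled replicate 1 were the high libraries for Rpl28, and Rpl39l, Rps10 and Rpl30 leaned the same way. The log2 ratios of WT replicate 2 to 1 and of KO-labelled replicate 1 to 2 had a Pearson r of 0.53 over 80 members. It was 0.33 without Rpl28 and 0.43 without Rpl28 and Rpl3l, against 0.0177 over 13306 genes with a mean of at least 50. Spearman's rho was 0.325 over the members and 0.145 over those genes, a smaller gap. Both ratios were below 0 in 43 members, both above 0 in 15, and opposite in 22. These are descriptions over genes of the same 4 libraries.

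**Figure D4:**
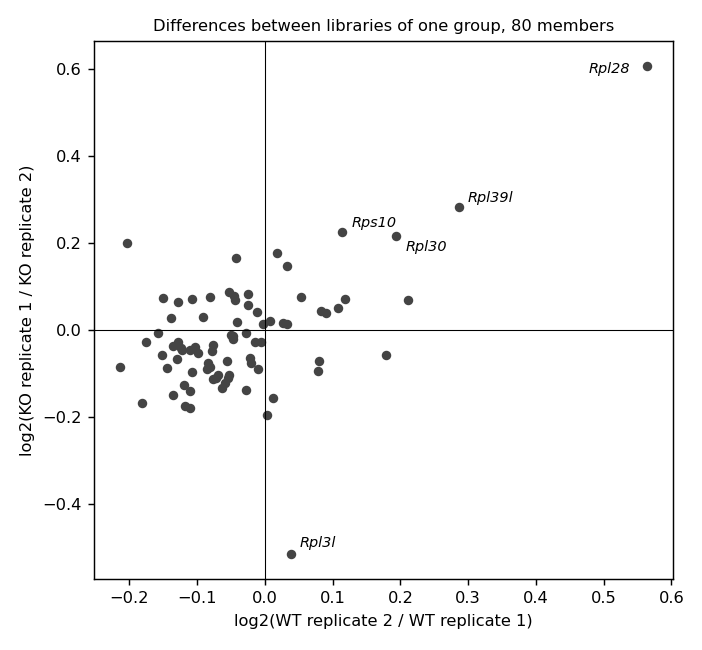
Each point is 1 of the 80 members. The x axis is the log2 ratio of WT replicate 2 to WT replicate 1 and the y axis that of KO-labelled replicate 1 to replicate 2. Most members lie in the lower left part, and Rpl28 lies far to the upper right.

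Genes around the ribosome did not share one direction. Of the ribosomal proteins whose names fall outside the rule, Fau, a ubiquitin-like fusion that yields a small subunit protein, passed on the high side (log2 fold change 0.21, adjusted p = 0.0133) by DESeq2. Rpl22l1, Rpl7l1, Rpl36al and Gnb2l1 stood between -0.13 and 0.0495 and did not pass. Among 18 translation factors and other genes with TOP mRNAs, 4 were higher and 6 lower, against 16.4% and 15.8% of all genes, with a median of -0.0346. The elongation factor subunit Eef1g (log2 fold change 0.33, adjusted p = 2.67e-06) and the poly-A binding protein Pabpc1 (log2 fold change 0.33, adjusted p = 0.000561) led the higher ones by DESeq2. Fau and Eef1g are on chromosome 19, where the other genes had a median of 0.383, and both stood below it. The intermediate filament gene Vim (log2 fold change -1.08, adjusted p = 2.41e-42) and the histone chaperone Nap1l1 (log2 fold change -0.51, adjusted p = 1.04e-13) led the lower ones. Of 7 snoRNA host genes tested, 3 were lower and 0 higher, against the same shares of all genes, with a median of -0.16. Of the lower ones, Snhg12 is on chromosome 4 and Snhg9 on chromosome 17, where other genes had medians of -0.205 and -0.134. Snhg9, which overlaps Rps2 on the other strand, had 459 and 564 in WT against 284 and 294 in the KO-labelled pair (log2 fold change -0.83 ± 0.19 SE, DESeq2 adjusted p = 7.65e-05), and Snhg12 stood at a log2 fold change of -0.46 (adjusted p = 9.56e-06). Of the translation factors and other TOP genes, 2, 4, 2 and 3 were higher and 5, 7, 5 and 6 lower without WT replicate 1, WT replicate 2, KO-labelled replicate 1 and KO-labelled replicate 2 in turn. Fau had a DESeq2 adjusted p of 0.236 without WT replicate 2 and 0.219 without KO-labelled replicate 1. Pabpc1 had a DESeq2 adjusted p of 0.0735 without WT replicate 1 and 0.0793 without KO-labelled replicate 1. Snhg9 had a DESeq2 adjusted p of 0.0755 without WT replicate 2.

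Ribosome biogenesis factors, which process rRNA and assemble subunits, were more often higher than lower. Of 36 tested, 16 passed on the high side and 3 on the low side, against 16.4% and 15.8% of all genes, with a median log2 fold change of 0.15. Dkc1, the pseudouridine synthase of H/ACA particles, had 17538 and 18359 in WT and 30110 and 29184 in KO-labelled cells (log2 fold change 0.72 ± 0.065 SE, DESeq2 adjusted p = 1.12e-26), and Nolc1, its nucleolar partner, had 24636 and 22224 in WT against 36078 and 38917 in the KO-labelled pair (log2 fold change 0.68 ± 0.074 SE, DESeq2 adjusted p = 2.79e-18). The small subunit export factor Ltv1 (log2 fold change -0.45, adjusted p = 1.53e-05) and the processing factor Rrp9 (log2 fold change -0.28, adjusted p = 0.000575) were the lowest. Of 11 chaperones and quality control genes of ribosomal proteins, 7 were higher and 1 lower, with a median of 0.201. The Rps26 chaperone Tsr2 (log2 fold change 0.30, adjusted p = 0.00326) and Pdcd2l (log2 fold change 0.27, adjusted p = 0.0162) were the highest of them, and Nap1l1, also counted above, was the lower one. All these p-values are from DESeq2. Of the biogenesis factors, 12 were higher without WT replicate 1, 11 without WT replicate 2, 11 without KO-labelled replicate 1 and 10 without KO-labelled replicate 2, and of the chaperones, 0 were higher without WT replicate 1, 2 without WT replicate 2, 3 without KO-labelled replicate 1 and 1 without KO-labelled replicate 2. The lower biogenesis factors numbered 1, 3, 1 and 3 in the same order. Rrp9 had a DESeq2 adjusted p of 0.0663 without WT replicate 1 and 0.068 without KO-labelled replicate 1. Tsr2 had a DESeq2 adjusted p of 0.0703 without WT replicate 1, 0.0562 without WT replicate 2 and 0.181 without KO-labelled replicate 2. Pdcd2l had a DESeq2 adjusted p of 0.147 without WT replicate 1, 0.128 without WT replicate 2 and 0.32 without KO-labelled replicate 2.

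Of 22 genes of RNA polymerase I and III, which make rRNA and tRNA, 8 were higher and 3 lower, against 16.4% and 15.8% of all genes, with a median of 0.0781. Polr3a stood at a log2 fold change of 0.52 (adjusted p = 3.48e-08) and Polr3f at 0.45 (adjusted p = 8.54e-06), and on the low side Taf1b stood at -0.77 (adjusted p = 6.8e-11) and Polr3b at -0.35 (adjusted p = 0.00015). Of 14 tested rows for growth regulators of ribosomal protein synthesis, 5 were higher and 3 lower, against the same shares, with a median of 0.00723. Mycn, a Myc family activator of ribosome genes, had 12740 and 14400 in WT and 4312 and 4816 in KO-labelled cells (log2 fold change -1.57 ± 0.085 SE, DESeq2 adjusted p = 4.99e-73), and the 2 groups lay far apart. The translation repressor Eif4ebp2 stood at a log2 fold change of -0.35 (adjusted p = 0.000271), the Rps6 kinase Rps6kb2 at 0.72 (adjusted p = 3.29e-08) and the poly-A binding partner Larp4 at 0.38 (adjusted p = 0.000537). Mycn and Taf1b are on chromosome 12, and Eif4ebp2, Polr3b, Ltv1 and Nap1l1 on chromosome 10, both among the chromosomes with low medians. Among the higher genes, Nolc1 and Rps6kb2 are on chromosome 19, which had the highest median of any chromosome. All adjusted p-values here are from DESeq2. Of the polymerase genes, 5 were higher without WT replicate 1, 5 without WT replicate 2, 6 without KO-labelled replicate 1 and 5 without KO-labelled replicate 2, and of the growth regulators, 2 were higher without WT replicate 1, 3 without WT replicate 2, 3 without KO-labelled replicate 1 and 4 without KO-labelled replicate 2. The lower genes numbered 3, 2, 1 and 3 for the polymerases and 2, 1, 2 and 1 for the growth regulators in the same order. Polr3b had a DESeq2 adjusted p of 0.0593 without KO-labelled replicate 1. Eif4ebp2 had a DESeq2 adjusted p of 0.0849 without WT replicate 2 and 0.0501 without KO-labelled replicate 2. Larp4 had a DESeq2 adjusted p of 0.463 without WT replicate 1, 0.164 without WT replicate 2 and 0.107 without KO-labelled replicate 1.

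**Figure D5:**
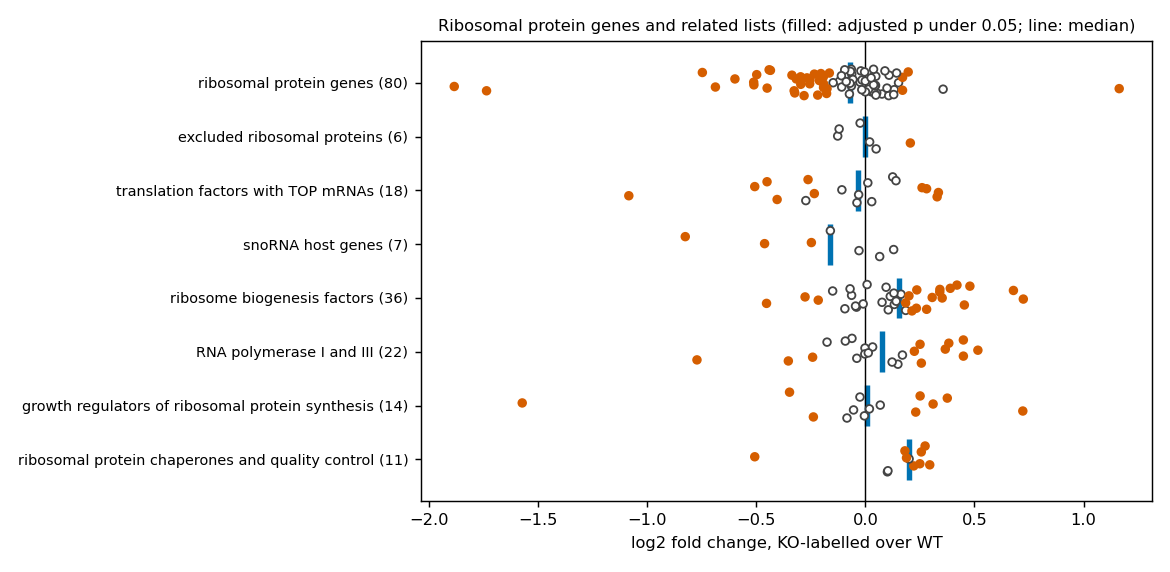
Log2 fold change (x axis, KO-labelled over WT) of each gene with an adjusted p in the ribosomal protein genes and 7 related lists (rows, number of genes in brackets). Filled points have an adjusted p under 0.05 and the line is the median, which is below 0 for the ribosomal protein genes and above 0 for the biogenesis factors.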

How the data were processed

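RNA was measured in 2 WT and 2 KO-labelled libraries of mESCs, grouped by their labels. Per the study's methods, ribosomal RNA was removed, stranded libraries were made and paired 75-base reads were mapped to mm9 with STAR. The authors counted reads over GENCODE vM1 genes in featureCounts and deposited raw counts per gene. Tool versions, the strand setting and the treatment of reads with several matches are not given in the sources used here. There were 0 columns without a sample.

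DESeq2 1.42.0 (R 4.3.3) was run on the counts (Wald test, group alone, all genes in 1 fit, Benjamini-Hochberg adjustment over all genes tested), after tests on simulated data. Normalized counts are counts divided by DESeq2 size factors. edgeR 4.0.16, other scalings, filters and blocks were alternatives, and sums over copies and list counts in other settings were added after the data were seen. A positive log2 fold change means more counts under the KO label. Copies were found with BLAST 2.17.0 against mm9 (at least 75 bases at 95% identity), and an annotated gene on the same strand was a copy where at least 200 of its bases, or 50% of its exonic bases, aligned. Intervals cover counting error only. Depth was lowest in WT, which limits low genes such as Rpl3l first.

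The members and lists were chosen with earlier results of these data known. Genes were named by rule: members at 2-fold and adjusted p under 0.001, up to 8 members in each direction with the largest change at adjusted p under 0.05 (mean of at least 50), the 5 highest and 5 lowest per kb, paralog pairs, the P stalk, the 5S particle, X-linked members, ribosomal proteins outside the name rule, 2 genes in each direction of every related list, and Spen. Some genes are not reported here. Other genes were named after their values were seen: Rpl28, Rps10, copies of members, and members and list genes set beside their chromosome or counted by setting.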

Additional observations from a re-analysis of the deposited data

How the results depend on the processing

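The p-values rest on 2 libraries a group, and the WT pair was the shallower. Where 1 library was left out, the lone library of its group was assumed to vary like those of the other group. At an adjusted p under 0.001 and any fold there were 21 lower and 1 higher members, with 8.87% and 8.46% of all genes. TMM scaling and size factors computed without the members left 32 lower and 4 higher, with 16% and 15.9% and 15.9% and 16.4% of all genes, and upper-quartile scaling gave 26 lower and 6 higher, with 14.8% and 19.5%. A low-count filter and edgeR each gave 32 lower and 2 higher, with 17.7% and 16.5% and 20.8% and 19.5%, and removed chromosome medians 28 lower and 2 higher. A trend in length and GC content gave 29 lower and 7 higher, with 15% and 19.9%. Leaving out 1 library at a time gave 1 to 2 higher and 19 to 26 lower members, with 20 lower without WT replicate 1 and 19 without KO-labelled replicate 1, where 11% and 11.7% of all genes were lower. Among members with copies over under 50% of the transcript, 8 were lower and 0 higher. The median log2 fold change of members, -0.072 at first, was -0.035 with upper-quartile scaling, -0.084 with the filter, -0.084 with edgeR, -0.047 with the length and GC trend, -0.10 with chromosome medians removed, -0.0983 to -0.0861 with 1 library left out and -0.037 among members with few copied bases. It was below 0 in each of these. The study's thresholds gave 1 higher and 2 lower members in each setting but 1, the sum over copies, where 1 was lower. With protein-coding genes as the denominator the members' share of counts was 7.5% in WT and 7.02% in the KO-labelled libraries. With chromosome medians removed the sign of the log2 fold change turned in 19 members, of which 2 had passed, and leaving out 1 library turned it in 8 to 10 members, none of which had passed. Among the members named by rule that did not pass, it turned for Rpl30 without KO-labelled replicate 1 (a range of -0.00497 to 0.206 over the libraries left out) and, with chromosome medians removed, for Rpl5 (-0.00945) and Rps27l (-0.00444). The cause of these changes was not tested. Where some libraries or members were left out, the comparison also held fewer of them.

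The labels do not say whether the replicate numbers pair the samples. Over 13306 genes, libraries that carry one number deviated from their groups with a Pearson correlation of -0.0177. This is the 0.0177 given above with 1 ratio turned round, beside a Spearman's rho of 0.145 there. A value near 0 cannot show that no libraries were paired. With the replicate block, 22 members were lower and 1 was higher, with 12.5% and 11.8% of all genes, and with the length and GC trend and the replicate block together 19 were lower and 3 higher, with 11.4% and 14.9% of all genes and a median of -0.047.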
